A study of Mus musculus with 3 samples.

Results

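Actin cytoskeleton and contractile genes were followed gene by gene through an in vitro differentiation of mouse testis cells toward the Leydig fate. The set holds 44 genes of the 24698 in the deposited count table of single cells. They were taken by name, and all 44 were found. The set was separated into 16 muscle-type genes, which are characteristic of smooth or striated muscle, and 28 general cytoskeletal genes. The source cells were Sca1+/cKit- cells sorted from testes of adult C57BL/6 males of 8 to 12 weeks. All 3 groups recovered in serum for 18 hours and were then expanded for 3 days on Matrigel with PDGFAA, PDGFBB, FGF2 and the Smoothened agonist SAG. Cells of day 4 followed expansion, and cells of days 7 and 14 had moved to differentiation medium, which kept these factors and added LiCl2 and the Notch inhibitor DAPT. Drop-seq, which captures single cells with barcoded beads and counts transcripts as unique molecular identifiers (UMIs), was performed on 1 sample per day, and the libraries were sequenced in the same batch per the study's methods. With 1 library per day, a difference between days cannot be told apart from a difference between libraries, so no test between days is given and intervals cover counting error only.

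Actin filaments are built from actin monomers and cut, capped, bundled and anchored by a large set of binding proteins, and they generate force when myosin slides along them. Most cells use the beta and cytoplasmic gamma actins, whereas smooth muscle cells and activated fibroblasts add alpha smooth muscle actin with transgelin, calponin and smooth muscle tropomyosins. In the testis these proteins are known from the peritubular myoid cells, whose contraction moves sperm along the tubule, while Leydig cells are steroid-producing cells of the interstitium. Many contractile genes are known targets of serum response factor (SRF), which binds the CArG box and is held active by actin polymerization through its cofactors.

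The 3 libraries held 2980, 2171 and 973 cells on days 4, 7 and 14, with 12677110, 11627440 and 5324400 UMIs and median depths of 2886.5, 3285 and 3272 UMIs per cell. No barcode was shared between libraries. Within a library, however, 43.8%, 47.3% and 51.8% of the cells on days 4, 7 and 14 shared the first 11 of the 12 barcode bases with another cell, so that the number of distinct beads may be as low as 2027, 1414 and 601. The main ratios between days are therefore also given for the cells whose first 11 bases were their own. The label of Leydig differentiation was checked against 8 Leydig markers, whose summed level was 243, 472 and 7710 UMIs per 1000000 UMIs (CPM) on the 3 days, with all 8 detected on each day. Star gave 197 and 362 CPM of the sums on days 4 and 7, when Hsd3b6 had 1 and 2 UMIs. Germ cell markers (5 genes) summed to 116, 18.7 and 38.1 CPM, endothelial markers (6 genes) to 85.2, 118 and 25.2 CPM, and Sertoli markers (4 genes) to 29.9, 33.6 and 16.2 CPM with Amh at 0. Of the endothelial sums, Cdh5 gave 77.7, 111 and 22.35 CPM. Macrophage markers (10 genes) summed to 11.5, 29.0 and 246 CPM, of which Lyz2 gave 200 CPM on day 14. Their part in the results was not tested.

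The CArG box, a run of 10 bases that opens with CC, closes with GG and has 6 bases of A or T between them, reads as the same pattern on both strands. It was looked for in RefSeq promoters on GRCm38.p6 that reach from 250 bases before to 50 bases after the start site. Of the 44 genes, 38 had a promoter in the table, and 6 of these (15.8%) held a box, against 488 of all 27025 genes (1.81%) and 535 of all 32851 promoters (1.63%). A match is a description of the letters and not a binding site. The windows below, all upstream of the start site, show the boxes in capitals because these 6 genes are measured in the following paragraphs.
Srf, chr17:46556200-46556259, minus strand: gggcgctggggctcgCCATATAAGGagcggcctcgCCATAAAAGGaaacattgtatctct
Myl9, chr2:156775278-156775337, plus strand: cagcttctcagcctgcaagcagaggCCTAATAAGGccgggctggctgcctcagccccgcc
Cnn2, chr10:79988519-79988578, plus strand: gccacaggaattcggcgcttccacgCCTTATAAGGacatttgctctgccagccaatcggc
Vcl, chr14:20929148-20929207, plus strand: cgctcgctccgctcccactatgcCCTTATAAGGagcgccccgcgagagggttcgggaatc
Actg1, chr11:120348551-120348610, minus strand: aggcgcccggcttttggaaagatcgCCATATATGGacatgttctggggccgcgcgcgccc
Myl6, chr10:128493025-128493084, minus strand: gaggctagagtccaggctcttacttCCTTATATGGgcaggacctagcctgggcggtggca
Srf, the regulator itself, was the 1 member with 2 boxes, which began 82 and 62 bases before its start. The box began 161 bases before the start in Myl9, 56 in Cnn2, 227 in Vcl, 90 in Actg1 and 50 in 1 of the promoters of Myl6. Only Myl9 among them is a muscle-type member, so 1 of 11 muscle-type and 5 of 27 general members with a promoter held a box in this window, and the Acta2 promoter of the table held none. Boxes that deviate from the exact pattern or lie outside this window were not looked for, so a promoter without a match cannot be said to lack a box.

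Transcripts of the whole set made up 4.57% of all UMIs on day 4 (exact Clopper-Pearson 95% interval 4.56 to 4.58%), 3.65% on day 7 (3.64 to 3.66%) and 0.825% on day 14 (0.817 to 0.833%). Muscle-type members gave 1.84%, 1.43% and 0.226% of all UMIs on the 3 days, and general members gave 2.73%, 2.22% and 0.599%. The muscle-type share of the members' own UMIs was thus close on days 4 and 7, at 40.3% and 39.2%, and lower on day 14, at 27.4% (27.0 to 27.8%). In summed UMIs, fewer cells of a type and less RNA per cell cannot be told apart, and the values within cells are given further below.

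For ratios between days, log2 values of CPM with a pseudocount of 1 were used, over genes with a mean of at least 20 CPM over the 3 days. This filter passed 6138 genes, among them 40 members, and left out 4 low muscle-type members (Cnn1, Myh11, Flnc and Synpo2). Between days 4 and 7, 1 of the 40 members was lower by 2-fold or more (1.65% of all genes tested) and 0 were higher (1.76% of all genes). Between days 7 and 14, 36 of the 40 were lower by 2-fold or more (14.0% of all genes) and 0 were higher (7.98% of all genes), and the other 4 were lower by less. The median log2 ratio of day 14 over day 7 was -3.15 for the 12 muscle-type members tested and -2.02 for the 28 general members, against -0.22 for all genes tested. For day 7 over day 4 the medians were -0.36, -0.28 and 0.05. Restricted to cells with first 11 barcode bases of their own, the medians of day 14 over day 7 were -3.12 for muscle-type and -1.97 for general members, against -0.21 for all genes, and those of day 7 over day 4 were -0.40 and -0.29. The muscle-type median depended on which genes were given that name, since a narrow list of 8 smooth muscle genes had -4.20. Of that list only Acta2, Actg2, Tagln, Mylk and Lmod1 passed the filter, and its median was the value of Actg2, which had 12 UMIs on day 14.

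**Figure D1:**
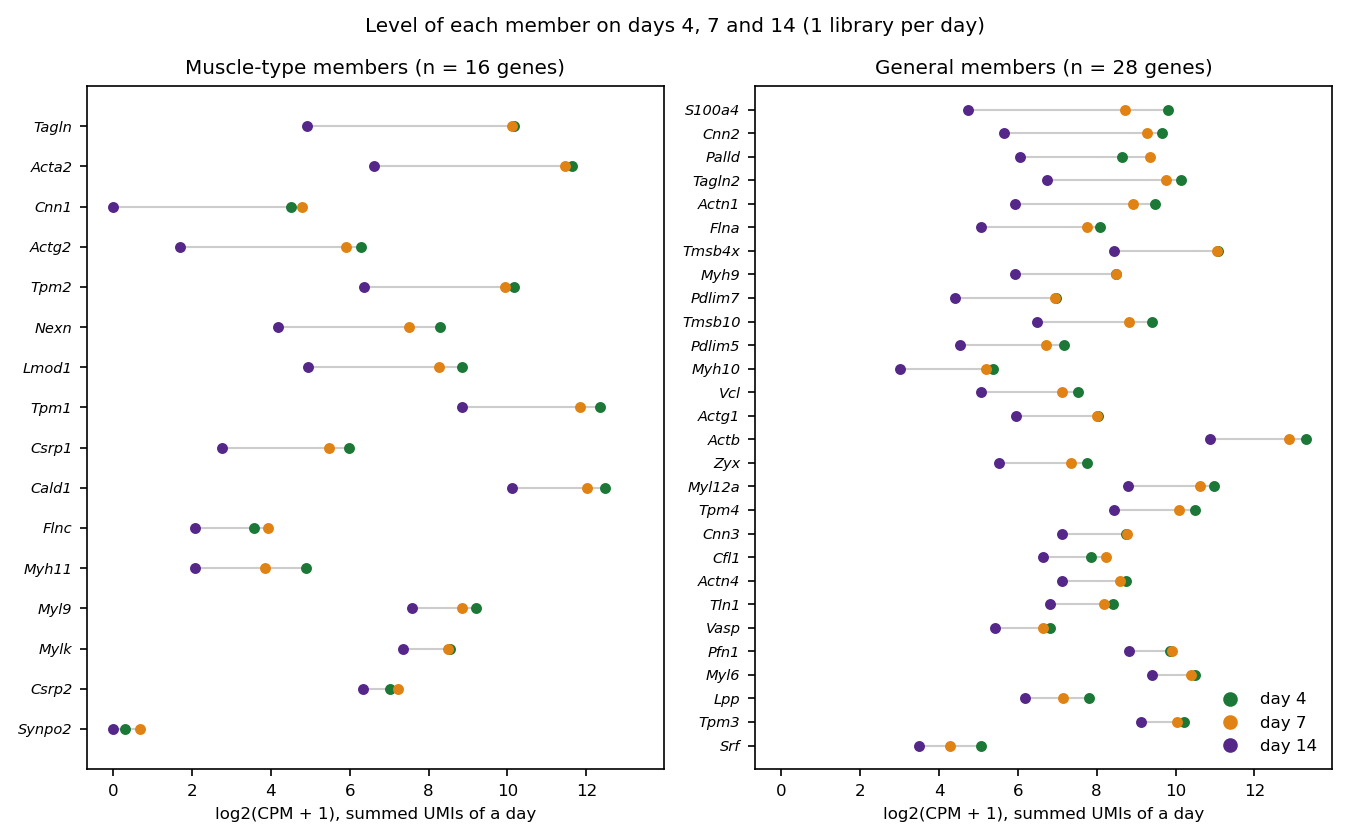
Level of each of the 44 members as log2(CPM + 1), 1 point per day from 1 library each, with muscle-type members on the left and general members on the right, ordered by the log2 ratio of day 14 over day 7. The day 14 point lies to the left of the day 7 point in every row, while the points of days 4 and 7 lie close together for most members.

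**Figure D2:**
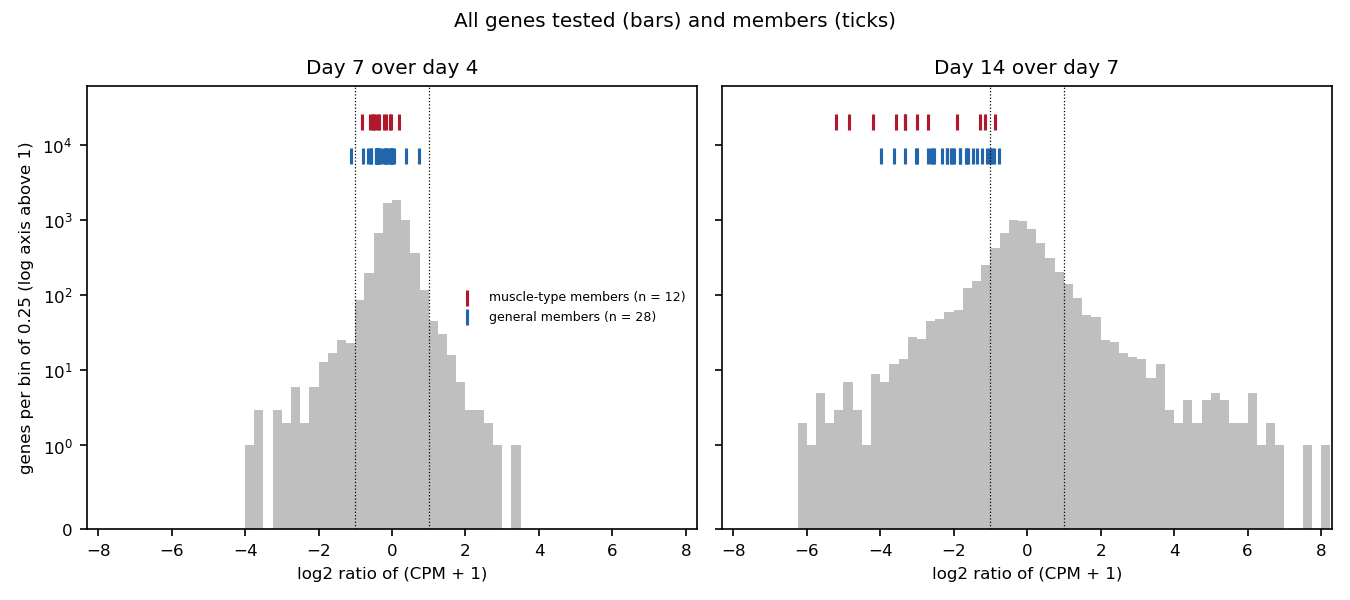
Histograms of the log2 ratios of all 6138 genes tested (grey bars, log axis above 1), with ticks for the 12 muscle-type and 28 general members that passed the filter and dotted lines at 2-fold. For day 7 over day 4 the members' ticks sit mostly just below 0 (35 of 40, median -0.33), and they are wholly below 0 for day 14 over day 7, from -5.21 (Tagln) to -0.77 (Srf).

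Among the 4 actins, the muscle forms differed far more between days 7 and 14 than the cytoplasmic forms. Acta2 (alpha smooth muscle actin, chr19:34241090-34255590 of GRCm38) stood at 3162, 2831 and 97.1 CPM on days 4, 7 and 14, from 40080, 32914 and 517 UMIs. The day 7 level was 29.2 times that of day 14 (95% interval 26.7 to 31.9) and 0.895 times that of day 4. Actg2, the gamma actin of enteric smooth muscle, was at 77.0, 58.9 and 2.25 CPM on days 4, 7 and 14, the last from 12 UMIs, and was 26.1-fold higher on day 7 than on day 14 (14.9 to 50.8). Actb, the beta actin of nearly all cells (chr5:142903115-142906754), was at 10108, 7496 and 1887 CPM and was 3.97-fold higher on day 7 than on day 14 (3.89 to 4.06). Actg1, the cytoplasmic gamma actin, held 261 and 257 CPM on days 4 and 7 and 61.2 CPM on day 14, a 4.20-fold difference (3.75 to 4.72). Both muscle actins together made 23.8% of the UMIs of the 4 actin genes on day 4, 27.2% on day 7 and 4.85% on day 14 (4.46 to 5.27%), so the composition of actin transcripts differed along with their amount. Sequences of actin genes are closely related, and how reads matching several of them were handled could shift UMIs among them.

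In the calponin family, proteins that bind along actin filaments, the muscle-type members again differed most. Tagln (transgelin, also called SM22-alpha) was at 1138, 1117 and 29.1 CPM on days 4, 7 and 14, and its 38.4-fold difference between days 7 and 14 (32.7 to 45.2) placed its log2 ratio at percentile 0.179 among all genes tested. Cnn1, the calponin of differentiated smooth muscle, had 277 and 309 UMIs on days 4 and 7 (21.9 and 26.6 CPM) and 0 UMIs on day 14. Set against a floor of 3 counts in the day 14 library, the Cnn1 level was 47.2-fold higher on day 7 and 38.8-fold higher on day 4. These 2 values leave out the counting error of the earlier day. With it, the lower limits of the exact intervals were 38.1-fold for day 7 over day 14 and 31.3-fold for day 4 over day 14. Cnn2, the calponin of non-muscle cells, was at 802, 619 and 49.4 CPM, a 12.5-fold difference between days 7 and 14 (11.1 to 14.2). Tagln2, a widely expressed transgelin, was at 1128, 862 and 105 CPM and differed 8.21-fold (7.54 to 8.96). Cnn3, the acidic calponin, was at 431, 434 and 138 CPM and showed the smallest difference of the family, at 3.15-fold (2.92 to 3.41).

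Myosin genes differed less between days 7 and 14, with a median log2 ratio of -1.55 over the 6 tested. Myh9, the heavy chain of non-muscle myosin IIA, was at 360, 357 and 59.5 CPM on days 4, 7 and 14 and was 5.99-fold higher on day 7 than on day 14 (5.35 to 6.74). Myh10, the heavy chain of non-muscle myosin IIB, was at 40.2, 35.9 and 7.14 CPM, a 5.03-fold difference (3.60 to 7.20). Myl12a, a regulatory light chain, was at 1998, 1568 and 443 CPM, or 3.54-fold (3.39 to 3.69). The muscle-type light chain Myl9 was at 588, 462 and 189 CPM and differed by 2.45-fold (2.29 to 2.62), less than Myl12a. Mylk, the kinase that activates these light chains, was at 371, 358 and 162 CPM and differed by 2.21-fold (2.05 to 2.38). Myl6, the essential light chain, lay nearest the 2-fold line at 1434, 1353 and 674 CPM and 2.01-fold (1.94 to 2.08). Myh11, the heavy chain that defines mature smooth muscle, had 366, 156 and 17 UMIs, or 28.9, 13.4 and 3.19 CPM, and was low throughout. Muscle and non-muscle members thus did not separate within the myosins as they did within the actins.

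Filament-coating proteins were next. Tpm1 (tropomyosin 1) was at 5210, 3657 and 461 CPM on days 4, 7 and 14, and Tpm2 was at 1140, 981 and 81.3 CPM. They differed 7.94-fold (7.62 to 8.27) and 12.1-fold between days 7 and 14. Tpm4, of non-muscle filaments, was at 1453, 1088 and 345 CPM and differed by 3.15-fold (3.00 to 3.31), and Tpm3 was at 1181, 1041 and 558 CPM and differed by 1.87-fold (1.79 to 1.94), so the order of the 4 tropomyosins followed the muscle and non-muscle classes. Lmod1 (leiomodin 1, which starts actin filaments in smooth muscle) was at 463, 304 and 29.7 CPM and differed 10.2-fold (8.73 to 12.1). Cald1 (caldesmon, which restrains myosin on the filament) was at 5685, 4113 and 1101 CPM and differed by 3.74-fold (3.64 to 3.84). Tpm1, Lmod1 and Cald1 were also lower on day 7 than on day 4, at 0.702, 0.656 and 0.723 times the earlier level. The counts do not separate the muscle and non-muscle isoforms that Tpm1 and Cald1 make by splicing.

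Crosslinking and scaffold proteins had a median log2 ratio of -2.69 between days 7 and 14 over the 9 tested. Palld (palladin, which links actinin and actin) had the highest ratio of day 7 over day 4 of all tested members, at 396 and 654 CPM or 1.65 times (1.59 to 1.71), and was at 65.0 CPM on day 14, a 10.1-fold difference (9.03 to 11.2). Nexn, the nexilin of muscle Z-discs, was lower on day 7 than on day 4, with 314, 179 and 17.1 CPM. Its day 7 level was 0.570 times that of day 4 (0.540 to 0.601) and 10.5 times that of day 14 (8.49 to 13.1). Actn1 and Actn4, the non-muscle alpha-actinins, parted from each other: Actn1 was at 717, 484 and 59.9 CPM with an 8.07-fold difference between days 7 and 14 (7.21 to 9.06), and Actn4 at 426, 385 and 138 CPM with 2.79-fold (2.58 to 3.02). Flna (filamin A) was at 269, 216 and 32.5 CPM and differed by 6.66-fold (5.71 to 7.81). Pdlim5 was at 142, 104 and 22.2 CPM and Pdlim7 at 124, 123 and 20.3 CPM, both PDZ and LIM scaffolds of the actin bundle, with differences of 4.71-fold and 6.05-fold. The LIM protein Csrp1 had 62.3, 43.2 and 5.82 CPM, or 7.42-fold, whereas its relative Csrp2 had 129, 148 and 80.2 CPM, or 1.84-fold (1.65 to 2.05), the smallest difference of the tested muscle-type members. Flnc (filamin C, of striated muscle) had 139, 166 and 17 UMIs, and Synpo2 had 3, 7 and 0 UMIs, which is at the floor and allows no ratio.

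Focal adhesions anchor actin bundles to the matrix. Vcl (vinculin) was at 183, 138 and 32.3 CPM on days 4, 7 and 14 and was 4.29-fold higher on day 7 than on day 14 (3.66 to 5.05). Zyx (zyxin, which repairs strained filaments) was at 217, 162 and 44.9 CPM and differed by 3.61-fold (3.15 to 4.14). Tln1 (talin, which couples integrins to actin) was at 341, 290 and 112 CPM, or 2.60-fold, and Vasp, which elongates filaments, was at 111, 99.4 and 41.9 CPM, or 2.37-fold. Lpp, a relative of zyxin, was at 223, 141 and 71.9 CPM, a 1.96-fold difference (1.76 to 2.20), and its day 7 level, at 0.634 times that of day 4, was the lowest such ratio of the 5 adhesion members. Regulators of actin monomers were lower on day 14 as well. Tmsb4x (thymosin beta 4, which holds monomers in reserve) was at 2162, 2136 and 348 CPM, or 6.13-fold (5.85 to 6.43), and Tmsb10 was at 671, 448 and 88.8 CPM, or 5.05-fold (4.59 to 5.56). Cfl1 (cofilin, which severs filaments) was at 231, 302 and 98.0 CPM, with 1.30 times the day 4 level on day 7 and 3.08-fold less on day 14. Pfn1 (profilin, which feeds monomers to growing ends) was at 936, 967 and 450 CPM and differed by 2.15-fold (2.06 to 2.25).

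Srf itself was a low transcript, with 409, 213 and 55 UMIs on days 4, 7 and 14, or 32.3, 18.3 and 10.3 CPM. Its log2 ratios were -0.78 for day 7 over day 4 and -0.77 for day 14 over day 7, the smallest difference of any tested member in the second interval. S100a4, a calcium-binding protein that interacts with non-muscle myosin and is often used as a fibroblast marker, was the 1 tested member lower by 2-fold or more in both intervals (Myh11, under the filter, also was), at 904, 417 and 25.5 CPM (11458, 4847 and 136 UMIs). Its day 7 level was 0.461 times that of day 4 (0.446 to 0.477) and 16.3 times that of day 14 (13.8 to 19.5). Thus the members with a day 14 level more than 10-fold under that of day 7 were Acta2, Actg2, Tagln, Cnn1, Tpm2, Lmod1 and Nexn of the muscle type and S100a4, Cnn2 and Palld of the general type.

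Single cells were examined next. Each cell was thinned at random to 1500 UMIs, which kept 2227, 1742 and 794 cells on days 4, 7 and 14 and left out 753, 429 and 179 shallower cells. Muscle-type UMIs per cell had medians of 24, 18.5 and 3, and the middle 90% of cells ran from 8 to 55, from 5 to 45 and from 0 to 9. General members had medians of 41, 32 and 8 UMIs, with ranges of 19 to 63, 11 to 58 and 4 to 17. The upper end of the muscle-type range on day 14 thus lay close to its lower end on day 4 (9 and 8 UMIs). An Acta2 UMI was seen in 84.2%, 77.0% and 5.79% of cells, and a Tagln UMI in 62.6%, 61.7% and 1.89%. Before thinning, the Acta2 shares were 88.2%, 82.2% and 9.25%. Actb remained widespread, in 99.7%, 98.6% and 88.9% of thinned cells, with medians of 15, 10 and 2 UMIs. Summing barcodes that shared their first 11 bases gave muscle-type medians of 24, 18 and 3.

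**Figure D3:**
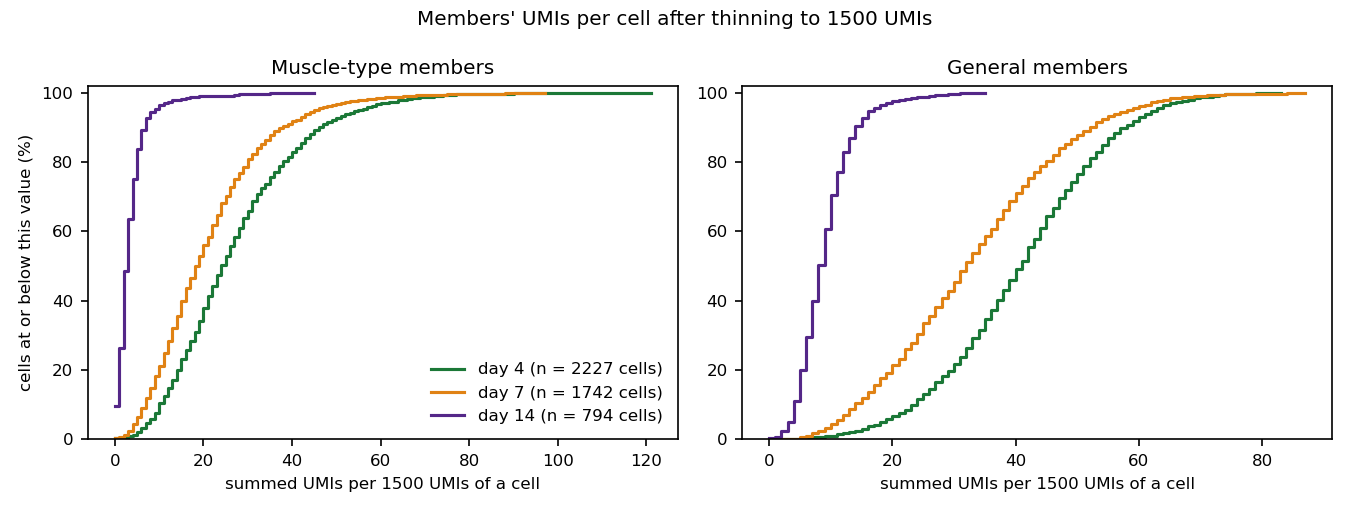
Cumulative share of cells (%) at or below a given number of summed muscle-type UMIs (left) and general UMIs (right) per 1500 UMIs of a cell, 1 line per day (2227, 1742 and 794 cells). The day 14 line rises at the far left of both panels, with medians of 3 and 8 UMIs against 18.5 and 32 on day 7.

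Cells of day 14 were not alike in the low levels that were left. They were separated on the thinned counts by the steroid enzymes Cyp11a1, Cyp17a1 and Hsd3b1, into 359 cells with at least 2 UMIs of the 3 and 332 cells with none, 103 cells lying between. The median depths were 4856 and 4491.5 UMIs. Cells without enzyme UMIs still held 679 CPM of Insl3 and 641 CPM of Star, so as a summed group they did not lack these Leydig transcripts. How these UMIs were spread over the cells was not examined. Of 35 members tested, 13 were lower by 2-fold or more in the enzyme-bearing cells (4.28% of all genes) and 0 were higher (3.31% of all genes), with medians of -1.26 over 9 muscle-type and -0.45 over 26 general members. Acta2 was at 4.24 CPM with enzyme UMIs and 230 CPM without, from 11 and 448 UMIs. Tagln was at 0.772 and 67.9 CPM, with 2 UMIs in all of the enzyme-bearing cells. Lmod1 was at 2.32 and 59.1 CPM, and S100a4 at 1.93 and 57.6 CPM. The filter was a mean over both groups, and Acta2, Tagln, Lmod1 and S100a4 passed it only through the cells without enzyme UMIs. Tmsb4x, from 263 and 1282 UMIs, was 6.49-fold lower in the enzyme-bearing cells (5.68 to 7.44), while Tmsb10 differed by 1.36-fold (1.11 to 1.66).

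Other members hardly differed within day 14. Actb was at 1747 CPM with enzyme UMIs and 2077 CPM without, Myl6 at 682 and 681 CPM, Pfn1 at 422 and 457 CPM and Tpm3 at 539 and 603 CPM. Vcl, at 33.2 and 28.3 CPM, had a ratio of 1.17 with an interval of 0.827 to 1.68. An Acta2 UMI was seen in 0.279% of the enzyme-bearing cells and in 11.1% of the cells without enzyme UMIs.

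On day 7 only 26 cells, from as few as 15 beads, had at least 2 enzyme UMIs, against 1711 with none and 5 between, with median depths of 2969.5 and 4487 UMIs. In these few cells 30 of 38 members tested were already lower by 2-fold or more (13.8% of all genes) and 0 were higher (13.4% of all genes), with medians of -3.35 for muscle-type and -1.71 for general members. Some of these calls rest on few counts, as the 26 cells held 130245 UMIs in all. Csrp1 had 0 UMIs there, Actg2, Lmod1 and Nexn had 1 each, and Vcl and Vasp had 2 each. All of these passed the filter, a mean over both groups, only through the other cells. Acta2 was at 69.1 CPM in the enzyme-bearing cells (9 UMIs) and 2887 CPM in the others, a 41.8-fold difference (22.0 to 91.4). Tpm1 was at 507 and 3705 CPM, Actb at 2518 and 7567 CPM, and Myl6 at 591 and 1365 CPM. Csrp2 (131 and 147 CPM) and Tpm3 (929 and 1044 CPM) had intervals that included a ratio of 1. Between the enzyme-bearing cells of days 7 and 14, the log2 ratio had a median of -0.80 over 7 muscle-type and -0.65 over 25 general members tested, against -0.22 over all genes. Single members ranged from -3.74 to 1.20, with 27 of 32 below 0 and 5 above, against 3664 of all 5876 genes below 0. By 2-fold or more, 8 of the 32 were lower and 2 were higher, against 821 and 451 of the 5876 genes.

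The reverse also held in part, since cells of day 14 without enzyme UMIs were low too. With the cells bearing enzyme UMIs left out on every day, the median log2 ratio of day 14 over day 7 was -2.40 for muscle-type and -1.74 for general members, against -0.18 for all genes. Acta2 stood at 230 CPM in those cells of day 14 and at 2887 CPM in those of day 7.

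**Figure D4:**
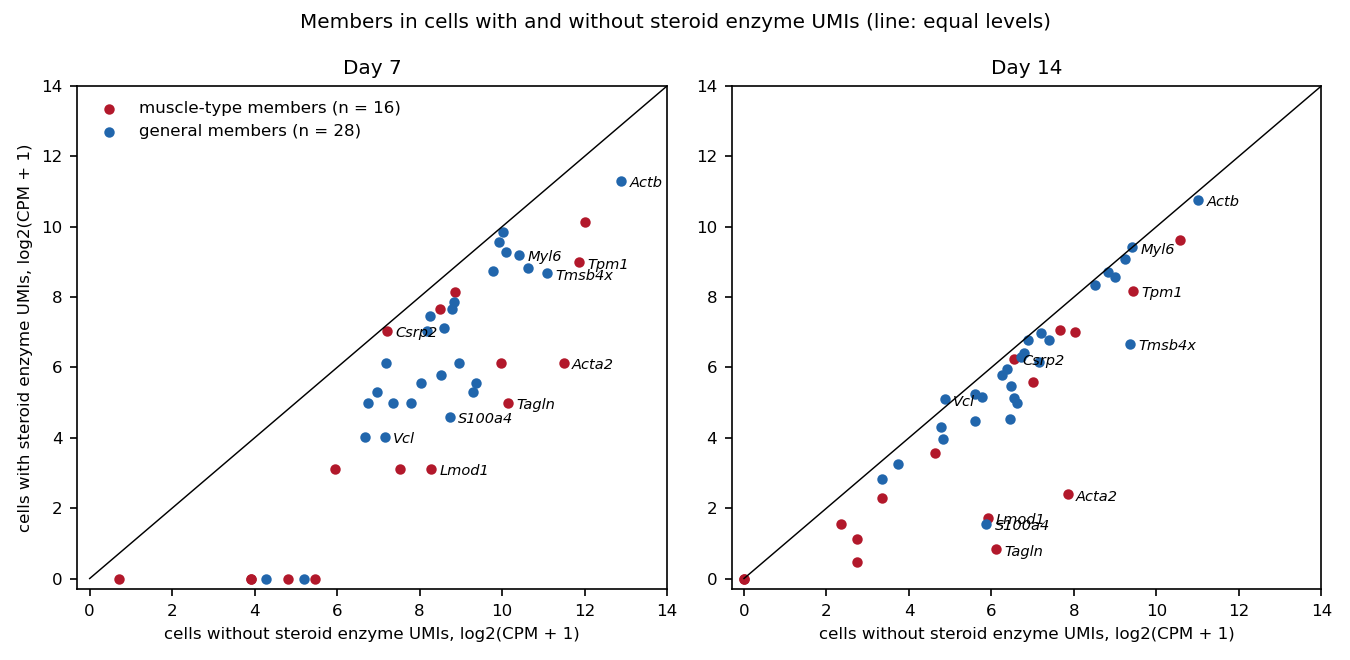
Levels of the 44 members as log2(CPM + 1) in cells with at least 2 steroid enzyme UMIs (vertical) against cells with none (horizontal), for day 7 (26 and 1711 cells) and day 14 (359 and 332 cells), with a line of equal levels. On day 7 most points lie below the line. On day 14 most general members lie near it, and Acta2, Tagln, Lmod1, S100a4 and Tmsb4x lie far below.

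The few Acta2 transcripts of day 14 were concentrated. Of 517 UMIs, 334 (64.6%) came from 10 of the 973 cells, which stood for at least 9 beads, and a single cell gave 117. On days 4 and 7 the 10 leading cells gave 3.97% and 5.10% of the Acta2 UMIs. After thinning, 46 cells of day 14 held an Acta2 UMI and 748 did not, with median depths of 4996.5 and 4339 UMIs. Of the 35 other members tested, 18 were higher by 2-fold or more in the Acta2-bearing cells (7.56% of all genes) and 0 were lower (5.86% of all genes). The filter was a mean over both groups, so a member could pass it only through the Acta2-bearing cells, and the count is partly set by this. Tagln was such a member, at 494 CPM in the Acta2-bearing cells and 3.30 CPM in the rest. Cnn2 was at 328 and 32.6 CPM, Lmod1 at 180 and 20.2 CPM, and Actn1 at 231 and 49.9 CPM. Actg2 had 9 UMIs in these 46 cells and 3 in the other 748, whereas Cnn1 had 0 in either. Acta2-bearing cells had 10.8 CPM of Cyp17a1 against 916 CPM, and 108 CPM of Insl3 against 1912 CPM. Tln1 (112 and 112 CPM), Vasp (39.7 and 42.3 CPM) and Pfn1 (476 and 444 CPM) were alike within counting error.

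Dividing cells were compared with non-dividing cells within a day, since 12 mitotic genes summed to 1137, 1002 and 178 CPM on days 4, 7 and 14. On day 4, 433 cells had at least 2 mitotic UMIs, 1565 had none and 229 lay between, with median depths of 4459 and 3940 UMIs. All 13 muscle-type members tested were lower in the dividing cells, with a median log2 ratio of -0.46, while general members had -0.11. By 2-fold or more, 1 of 41 members was lower (0.446% of all genes) and 0 were higher (4.52% of all genes). That member was Myh11, at 13.3 and 34.2 CPM. Acta2 was at 2257 CPM in dividing and 3458 CPM in non-dividing cells (ratio 0.653, 0.634 to 0.672), Tpm1 at 3688 and 5687 CPM, and Nexn at 205 and 351 CPM. Actb differed little, at 9847 and 10168 CPM, and Tagln2 was higher in dividing cells, at 1345 and 1074 CPM.

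On day 7 the same separation gave 342 and 1216 cells, with 184 between and median depths of 4833 and 4305 UMIs. The muscle-type median was -0.01 and the general median was 0.02, and Acta2 was at 2871 and 2778 CPM. Of 40 members, 1 was higher by 2-fold or more (4.92% of all genes) and 0 were lower (0.798% of all genes). The member was Myh10, at 67.4 CPM in dividing and 27.0 CPM in non-dividing cells, a log2 ratio of 1.29, with an interval of 2.01 to 3.09 for the ratio itself. On day 4 Myh10 had been at 62.0 and 34.2 CPM, a ratio of 1.81 (1.48 to 2.21), so this non-muscle myosin was higher in dividing cells on both days. The day 7 median of the muscle-type members was not that of day 4, a difference between days that was not tested. Under the filter on day 7, Myh11 was again lower in dividing cells, at 4.38 and 16.9 CPM from 10 and 128 UMIs. Flnc was lower as well (19 and 117 UMIs, 8.32 and 15.4 CPM), and Synpo2 had 3 and 4 UMIs.

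**Figure D5:**
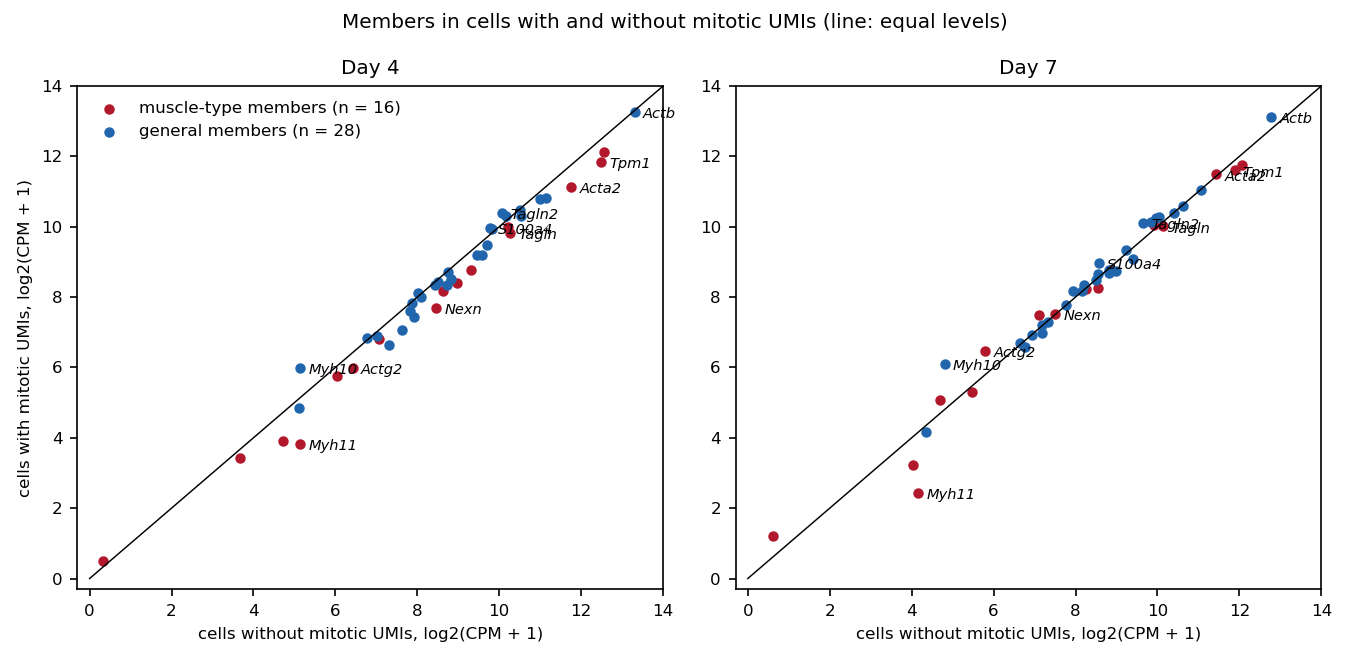
Levels of the 44 members as log2(CPM + 1) in cells with at least 2 mitotic UMIs (vertical) against cells with none (horizontal) on day 4 (433 and 1565 cells) and day 7 (342 and 1216 cells), with a line of equal levels. Most muscle-type members lie just below the line on day 4 and about the line on day 7. Myh11 lies below the line and Myh10 above it on both days.

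Across cells of a day, each member was correlated with the summed UMIs of the muscle-type members other than itself, on log counts thinned to 1500 UMIs. Such cells share their library and their total, and the coefficients are descriptions. Among genes of at least 200 CPM, the median Pearson coefficient was 0.42 for 9 muscle-type members on day 4 and 0.45 for 8 on day 7. General members had 0.16 and 0.21, and all genes had 0.00 and 0.01. On day 14 only 2 muscle-type and 7 general members reached that level, with medians of 0.29 and 0.07 against -0.01 for all genes. On days 4 and 7 Actb had coefficients of 0.57 and 0.61, and so went with the muscle-type sum more than did other general members at the median. Its coefficient on day 14 was 0.17. Actb was also the most abundant member, and the part of level in these coefficients was not tested. The non-members with the highest coefficients included Ctgf, S100a6, Cd59a and Lox on day 4 and S100a6, Lgals1, Thbs1 and Ctgf on day 7, with 0.28 to 0.41 and 0.33 to 0.45. On day 14 these were Ctgf, Ckb, Timp3, S100a6 and Fhl2 (0.32 to 0.41), and the lowest coefficients belonged to Akr1cl, Hsd3b1, Cyp11a1, Insl3 and Tsc22d1 (-0.32 to -0.30).

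Other genes of actin biology were counted by fixed lists for day 14 over day 7, and no list was tested. Among all genes tested, 14.0% were lower by 2-fold or more and the median log2 ratio was -0.22. Integrin adhesion had 10 of 10 tested genes lower by 2-fold or more, with a median log2 ratio of -1.44. Tes (testin, an adhesion protein that binds zyxin) was the extreme, at 32.6, 68.4 and 1.88 CPM on days 4, 7 and 14, and Itgb1, the shared beta chain of many integrins, was at 2033, 2064 and 839 CPM. The Arp2/3 complex and its activators, which build branched rather than contractile networks, had 3 of 11 lower by 2-fold or more, with a median of -0.72, and Arpc1a was at 217, 234 and 284 CPM. Capping and severing proteins had 4 of 10 lower by 2-fold or more and a median of -0.82, and Gsn (gelsolin) was at 632, 351 and 538 CPM. Of 12 other smooth muscle genes, 4 passed the filter. Smtn (smoothelin, at 113, 82.0 and 13.0 CPM) and Tgfb1i1 (Hic-5, at 127, 97.4 and 8.08 CPM) were lower on day 14, Fhl2 was at 1151, 906 and 454 CPM, and Pdlim3 (an actinin-associated LIM protein) was higher at 45.4, 29.4 and 91.7 CPM. The SRF cofactors did not pass the filter, with Mkl1 at 132, 80 and 21 UMIs, Mkl2 at 126, 71 and 38 UMIs and Myocd, the smooth muscle cofactor, at 2, 3 and 0 UMIs. Desmin (Des), a defining intermediate filament of mature muscle, had at most 2.84 CPM on any day.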

How the data were processed

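The authors' deposited counts are raw UMI counts per gene and cell barcode, not normalized, from Drop-seq reads aligned to GRCm38 with STAR and counted with Drop-seq tools. The submitters' processing notes name STAR 2.5.2a, Picard 2.6.0 and SAMtools 1.2, and the paper's methods give another STAR version. The merged table was used, which holds cells with more than 500 genes and under 10% mitochondrial UMIs, and 0 of its entries differed from the tables per day. A further 495 columns hold cells of other origin and were left out. Library totals were 5324400 to 12677110 UMIs.

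UMIs were summed per day or cell group as CPM, with exact 95% Poisson or Clopper-Pearson intervals, which cover counting error only. Log2 ratios used a pseudocount of 1 CPM and genes with a mean of at least 20 CPM over the 3 days. Within a day the mean was over both groups of cells, so a gene could pass through 1 group alone. Groups of cells were made on counts thinned to 1500 UMIs (seed 1), and their levels came from unthinned counts. Cells are not replicates, and no test was run. Scrublet in scanpy 1.11.5 called 3 of 6124 cells at an expected rate of 6%, so it did not work as a caller, and the 6% with the highest scores were removed as an alternative. Alternatives also covered cell filters, weights, scaling (TMM in edgeR 4.0.16), pseudocount, gene filter and the muscle-type list. Python 3.11.15, numpy 2.4.6 and scipy 1.17.1 were used, and scripts were tested on simulated data. All 44 members were to be named, in full where a 2-fold ratio occurred. Members and lists were chosen with earlier results of these data known. One further list and 1 further gene that the rules would name are not reported here. Gene positions are from GENCODE M21 and promoters from RefSeq.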

Additional observations from a re-analysis of the deposited data

How the results depend on the processing

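No median past 2-fold changed sign. Near 0, the day 7 muscle-type median of dividing cells went from -0.01 to 0.04 with 1 mitotic UMI as the limit, and the general median from 0.02 to -0.01 with barcodes summed. Of the 39 or 40 members tested, 34 to 37 were 2-fold lower on day 14 than on day 7 and 1 was on day 7 than on day 4, and with every gene of at least 1 UMI included these were 39 and 2 of 44. The muscle-type median of day 14 over day 7 became -2.86 with equal weight per cell, -2.87 with cells thinned to 1500 UMIs, -2.84 with every gene of at least 1 UMI included and -4.20 with the narrow list. For day 7 over day 4 it became -0.45 with TMM-scaled totals and -0.16 with the narrow list. The following settings were chosen after seeing the data. In cells without steroid enzyme UMIs, the medians of day 14 over day 7 became -2.40 (muscle-type) and -1.74 (general). Without mitotic cells the muscle-type median of day 7 over day 4 became -0.47. With 1 mitotic UMI as the limit, the day 4 muscle-type median of dividing cells became -0.35, and with levels from thinned counts the day 14 muscle-type median of enzyme-bearing cells became -1.10. The cause was not tested. Values below about 0.563 CPM on day 14 lie under the limit that a count of 0 allows. No paired analysis was possible because there is 1 library per day and no replicate number.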
